A study of Macaca mulatta with 30 samples.

Results

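The conducting airways of the lung are lined by secretory, ciliated and basal cells, and 9 genes that mark these cells were followed in the lung of preterm rhesus macaque fetuses whose mothers had received betamethasone. The genes were chosen by symbol: SCGB1A1, SCGB3A1, SCGB3A2 and MUC5B for secretory cells, FOXJ1, TPPP3 and RSPH1 for ciliated cells, and KRT5 and TP63 for basal cells. Of the 9, 7 were found among the 30246 genes of the lung count table, and all 7 passed the filter on low read counts. TPPP3 and KRT5 could not be matched to a row and have no value here. Positions and sequences of the genes are not given, because no reference of the build used by the authors was at hand.

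Basal cells lie on the basement membrane of the airway and serve as progenitors of the other airway cells. Secretory cells release secretoglobins and mucins, and ciliated cells carry motile cilia that move the mucus. All of these cells are rare in the peripheral lung, where alveolar and mesenchymal cells make up most of the tissue.

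RNA of fetal lung was sequenced from 15 wild-type animals in 5 groups of 3. Mothers had an intramuscular injection of saline (control), of 0.25 mg/kg Celestone, the clinical drug, which mixes betamethasone phosphate with betamethasone acetate, or of 0.125 mg/kg betamethasone acetate alone (Beta-Ac). Lungs were taken early (4 h for the clinical drug and 6 h for Beta-Ac) or 5 days after either drug, so that drug, dose and hour differ together between the early groups. The lung labels place all animals at gestational day 124 to 130, whereas the hippocampus labels that carry the animal numbers of the 3 lung controls give day 131 to 135. The study's methods name the right lower lobe as the piece sampled from the 5-day fetuses and no lobe for the early ones. A single set of saline animals served both times, and a comparison against control therefore shares its control libraries with every other one. Libraries held 14073002 to 45033799 counted reads, and the deepest was that of clinical drug 4 h animal 1.

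The labels were checked with known glucocorticoid targets. FKBP5, a co-chaperone of the glucocorticoid receptor, rose from 5.61 ± 0.296 CPM (reads scaled to a common library size; SD, n = 3) in control to 173 ± 49.6 CPM in the clinical drug 4 h group and to 52.0 ± 47.1 CPM in the Beta-Ac 6 h group. PER1 and ZBTB16 rose in the same 2 comparisons. Of 8 targets listed 4 were tested, and 3 of these were called higher in each, beside 7.4% and 0.442% of all genes. SGK1 was not among the 3, and no gene among the 4 targets tested was called at 5 days. The lung was also recognisable by its alveolar markers, since SFTPC, the surfactant protein of type 2 cells, had a median of 5095 CPM over the 15 libraries.

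The first question was whether either drug moved the airway genes. None of the 7 was called in any of the 4 comparisons against control. A gene was called when its fold change was at least 1.5, its p under 0.05 and its q under 0.1 in the edgeR quasi-likelihood test. Over all 17644 genes tested, 7.4% were called in the clinical drug 4 h group, 0.442% in the Beta-Ac 6 h group, 0% at 5 days after the clinical drug and 0.00567% at 5 days after Beta-Ac. At an unadjusted p under 0.05 the members counted 0, 3, 0 and 3 of 7 in that order, beside 18.7%, 11.5%, 4.39% and 6.42% of all genes. DESeq2, run as an alternative, called 0, 2, 0 and 1 of the 7, beside 7.35%, 1.4%, 0.0907% and 0.227% of all genes. In each of these 4 comparisons the study, using edgeR and the same thresholds, reported more genes than edgeR called here, also at 5 days. The reason for this gap was not tested.

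The fitted differences leaned upward. Log2 fold changes were above 0 for 6 of the 7 genes in the clinical drug 4 h group, and for 7 of 7 in each of the other 3 comparisons. Over all genes 50.5% to 52.7% were above 0. The median log2 fold change of the 7 genes was 0.67 in the clinical drug 4 h group, 1.90 in the Beta-Ac 6 h group, 0.84 at 5 days after the clinical drug and 1.70 at 5 days after Beta-Ac. Medians over all genes lay between 0.0030 and 0.019. These 4 comparisons rest on the same 3 control libraries, of which 2 were low for nearly all of these genes, so the 4 directions are not independent of each other. The 7 genes are not independent either, since their levels were positively correlated over the libraries (below).

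**Figure D1:**
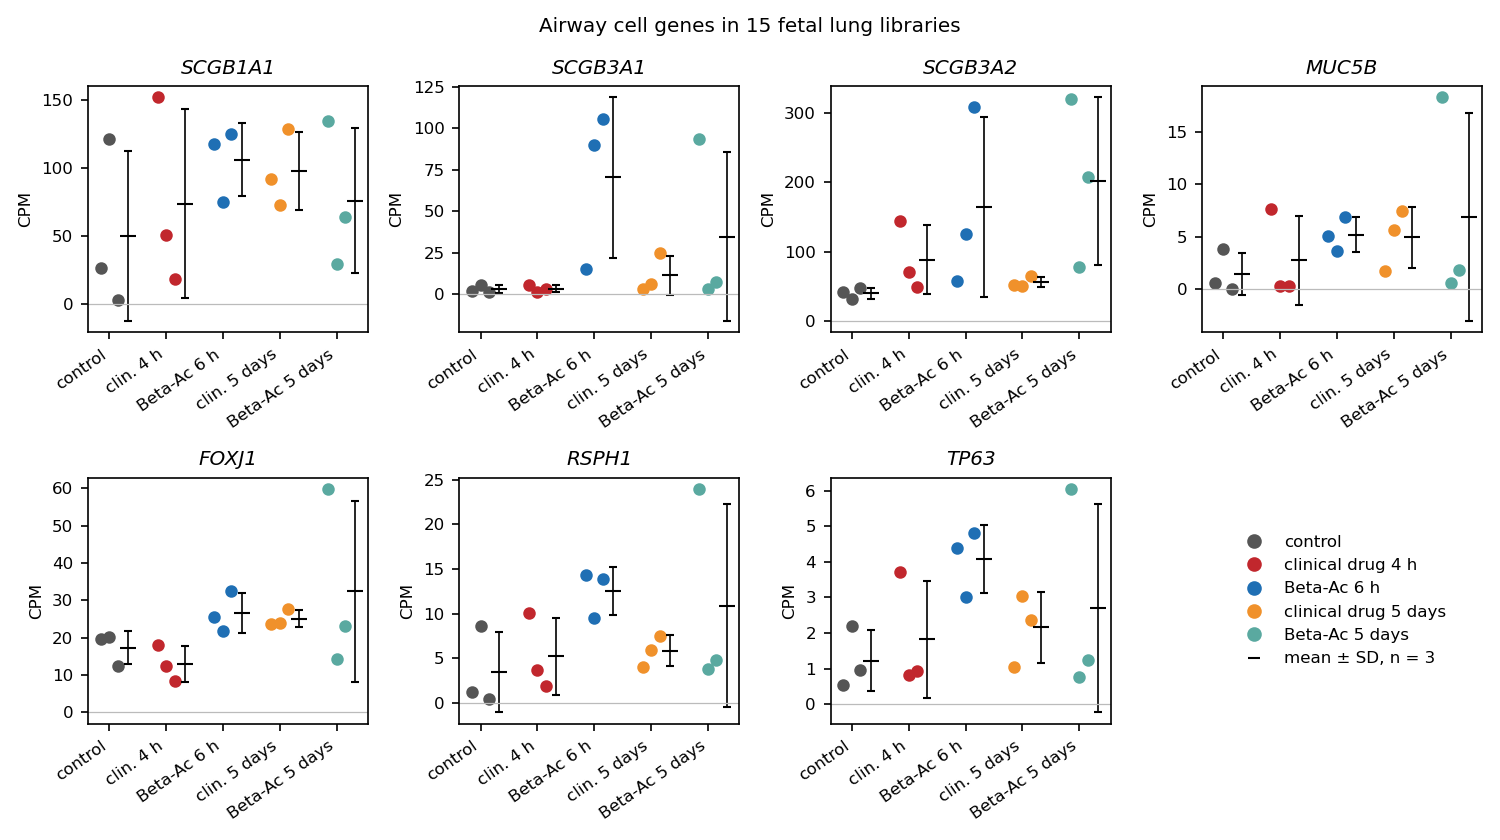
CPM (linear axes) of the 7 airway genes in each of the 15 lung libraries, with animals 1 to 3 of a group from left to right and the group mean ± SD as a black bar. Beta-Ac 5 days animal 1 was the highest library for 5 of the 7 genes (SCGB3A2 319 CPM, MUC5B 18.3, FOXJ1 59.9, RSPH1 24.0 and TP63 6.06), while the SCGB3A1 libraries in the Beta-Ac 6 h group lay at 15.4 to 106 CPM, above all of control.

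SCGB3A1, a secretoglobin of secretory cells of the larger airways, showed the widest difference. Control animals 1 to 3 had 2.14, 5.82 and 1.51 CPM, and the animals in the clinical drug 4 h group had 5.58, 1.27 and 3.44 CPM. In the Beta-Ac 6 h group the values were 15.4, 90.2 and 106 CPM. After 5 days they were 3.32, 6.34 and 24.8 CPM with the clinical drug and 93.4, 3.51 and 7.59 CPM with Beta-Ac. All 3 libraries in the Beta-Ac 6 h group were thus above all 6 libraries of the control and clinical drug 4 h groups, whereas at 5 days 2 of the 6 animals, clinical drug animal 3 and Beta-Ac animal 1, reached that range.

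The mean of SCGB3A1 in the Beta-Ac 6 h group was 70.5 ± 48.4 CPM (SD, n = 3) against 3.15 ± 2.33 CPM in control, a log2 fold change of 4.52 with a standard error (SE) of 1.23. Its 95% interval ran from 3.67-fold to 143.5-fold. The gene was not called, with an edgeR adjusted p of 0.169. DESeq2 gave a log2 fold change of 4.47 with an adjusted p of 0.0134 and called it. At 5 days after Beta-Ac the log2 fold change of SCGB3A1 was 3.501 (SE 1.199, edgeR adjusted p = 0.676), and the groups overlapped.

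SCGB3A1 was also the only member called when the drugs were compared with each other. It was lower in the clinical drug 4 h group than in the Beta-Ac 6 h group, with a log2 fold change of -4.27 (SE 1.19) and an edgeR adjusted p of 0.0381. In that comparison 6.74% of all genes were called, and 1 of the 7 members. With Beta-Ac 6 h animal 3 left out, SCGB3A1 stayed called (log2 fold change -3.86). The call was lost when clinical drug 4 h animal 2 was left out (log2 fold change -3.92, edgeR adjusted p = 0.117). Over the alternatives run, its adjusted p lay between 0.00477, from DESeq2, and that 0.117.

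Markers of submucosal glands and the trachea differed between the same libraries. Of 10 such genes, 4 were tested (LYZ, KRT4, CFTR and AZGP1), and their summed level was 27.5 to 41.2 CPM in control, 14.2 to 61.3 CPM in the clinical drug 4 h group and 59.2, 119 and 167 CPM in animals 1 to 3 in the Beta-Ac 6 h group. It was 146 CPM in Beta-Ac 5 days animal 1 and 36.9 to 47.1 CPM in the other libraries at 5 days. LYZ, the lysozyme gene, which glands and macrophages both express, made up most of the sum with a mean of 45.6 CPM over all libraries. None of the 4 was called against control, and KRT4, a keratin of stratified epithelium, was lower in the clinical drug 4 h group than in the Beta-Ac 6 h group (log2 fold change -1.79, edgeR adjusted p = 0.0814). FOXI1 and ASCL3, which define ionocytes, did not exceed 0.234 and 0.154 CPM in any library. Of 4 red blood cell markers tested, 3 (AHSP, SLC4A1 and HBA1) were called lower in the clinical drug 4 h group than in the Beta-Ac 6 h group, with a median log2 fold change of -2.92 over the 4, beside 6.74% of all genes. The summed level of the 4 was 25.6 to 43.8 CPM in the former group and 45.6, 38.5 and 222 CPM in animals 1 to 3 of the latter. The part of gland and red blood cells in the SCGB3A1 difference was not tested, and in tissue RNA more cells of a type and more RNA per cell cannot be told apart.

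SCGB3A2, a secretoglobin expressed along the bronchioles, had a pattern of its own. Control libraries held 41.8, 31.2 and 47.1 CPM. The clinical drug gave 144, 70.9 and 49.5 CPM at 4 h and 52.0, 50.8 and 64.4 CPM at 5 days. Beta-Ac gave 57.8, 125 and 309 CPM at 6 h and 319, 77.1 and 207 CPM at 5 days. Every one of the 12 treated libraries lay above the 3 control libraries, although the lowest treated value, 49.5 CPM, was close to the highest control value, 47.1 CPM. In the single comparisons 12.2% to 21.3% of all genes did not overlap control. The share of all genes apart in all 4 comparisons, which share their controls, was not computed.

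The log2 fold change of SCGB3A2 against control was 2.33 (SE 0.58) at 5 days after Beta-Ac and 2.03 (SE 0.57) in the Beta-Ac 6 h group. The edgeR adjusted p was 0.644 in the former and 0.179 in the latter. DESeq2 called both, with adjusted p of 0.0606 and 0.0627. For the clinical drug the log2 fold change was 1.14 (SE 0.56, edgeR adjusted p = 0.203) at 4 h and 0.48 (SE 0.56, edgeR adjusted p = 0.931) at 5 days.

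SCGB3A2 was not called between the drugs at 5 days, although the groups did not overlap. The 3 libraries of the clinical drug (50.8 to 64.4 CPM) lay below the 3 of Beta-Ac (77.1 to 319 CPM). The log2 fold change was -1.85 (SE 0.57), with an edgeR adjusted p of 0.999. No gene was called in that comparison (0% of all genes), while 3.15% of all genes and 1 of the 7 members had an unadjusted p under 0.05, and DESeq2 called 0 of the 7. Its difference between the early groups, clinical drug 4 h against Beta-Ac 6 h, was -0.89 on the log2 scale (95% interval -2.07 to 0.30).

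SCGB1A1 encodes the club cell secretory protein. Control animals 1 to 3 had 26.5, 121 and 2.66 CPM, a 45.6-fold span within 1 group. The early groups held 152, 50.9 and 18.3 CPM after the clinical drug and 118, 75.3 and 125 CPM after Beta-Ac. The 5-day groups held 91.6, 73.0 and 129 CPM after the clinical drug and 134, 29.6 and 64.2 CPM after Beta-Ac. Control animal 2 had as much SCGB1A1 as most treated animals, and the groups overlapped in all 4 comparisons against control. Log2 fold changes were 0.58, 1.09, 0.97 and 0.61 in the clinical drug 4 h, Beta-Ac 6 h, clinical drug 5 days and Beta-Ac 5 days groups, each with an SE of 0.91 to 0.92. The lowest of their edgeR adjusted p was 0.511. The 95% interval in the Beta-Ac 6 h group spanned from 0.543-fold to 8.35-fold, so that neither a lower level nor a severalfold higher one is outside it.

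MUC5B, the gel-forming mucin of airway secretory cells and glands, had 14 reads or fewer in 5 of the 15 libraries. Control animals had 0.535, 3.76 and 0 CPM, where the 0 reads of animal 3 allow up to 0.151 CPM (a floor of 3 reads, for counting error only). The values in the clinical drug 4 h group were 7.62, 0.299 and 0.250 CPM, and those in the Beta-Ac 6 h group were 5.01, 3.61 and 6.89 CPM. At 5 days they were 1.71, 5.63 and 7.41 CPM after the clinical drug and 18.3, 0.540 and 1.77 CPM after Beta-Ac. The 3 animals in the Beta-Ac 6 h group were close together, and in the clinical drug 4 h and Beta-Ac 5 days groups 1 animal carried most of the reads, with the highest library 30.4-fold and 33.9-fold over the lowest. None of the 4 log2 fold changes against control, 1.09 to 2.31 with SE of 1.40 to 1.42, was called, and the lowest edgeR adjusted p was 0.475.

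FOXJ1, the transcription factor that drives the motile cilium programme, varied least among the 7. Control animals had 19.6, 20.1 and 12.4 CPM, and animals in the clinical drug 4 h group had 18.1, 12.3 and 8.45 CPM. Beta-Ac at 6 h gave 25.7, 21.8 and 32.5 CPM. At 5 days there were 23.6, 24.0 and 27.7 CPM after the clinical drug and 59.9, 14.3 and 23.1 CPM after Beta-Ac. It was the only member with a fitted value below control in any comparison, in the clinical drug 4 h group, where the log2 fold change was -0.40 (SE 0.42, edgeR adjusted p = 0.467).

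The early groups of the drugs did not overlap for FOXJ1, with all 3 clinical drug libraries below all 3 Beta-Ac libraries. The log2 fold change was -1.02 (SE 0.41) and the edgeR adjusted p was 0.111, just outside the threshold, and DESeq2 called it with an adjusted p of 0.0812. Within the clinical drug, all 3 libraries at 5 days were above all 3 at 4 h, with a log2 fold change of 0.94 (SE 0.41, edgeR adjusted p = 0.117). DESeq2 called this difference too, with an adjusted p of 0.0963. In the comparison of 5 days with 4 h, 10.4% of all genes were called, and 0 of the 7 members.

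RSPH1 encodes a protein of the radial spoke head, a part of the beating cilium. Its control values were 1.19, 8.62 and 0.452 CPM, and in the clinical drug 4 h group they were 10.1, 3.66 and 1.88 CPM. In the Beta-Ac 6 h group they were 14.4, 9.48 and 13.9 CPM. At 5 days they were 4.06, 5.97 and 7.52 CPM after the clinical drug and 24.0, 3.82 and 4.75 CPM after Beta-Ac. All 3 animals in the Beta-Ac 6 h group were above all of control. The log2 fold change there was 1.91 (SE 0.90, edgeR adjusted p = 0.335). Its log2 fold changes at 5 days were 0.81 after the clinical drug and 1.70 after Beta-Ac, with edgeR adjusted p of 0.931 and 0.757.

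TP63, the transcription factor of basal cells, was the lowest member in reads, with 60 to 272 reads per group. Control values were 0.535, 2.19 and 0.954 CPM, and those in the clinical drug 4 h group were 3.73, 0.822 and 0.939 CPM. Beta-Ac at 6 h gave 4.40, 3.01 and 4.82 CPM. At 5 days they were 1.06, 3.03 and 2.38 CPM after the clinical drug and 6.06, 0.771 and 1.25 CPM after Beta-Ac. As for RSPH1, all 3 animals in the Beta-Ac 6 h group were above control. The log2 fold change was 1.75 (SE 0.78, edgeR adjusted p = 0.320).

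**Figure D2:**
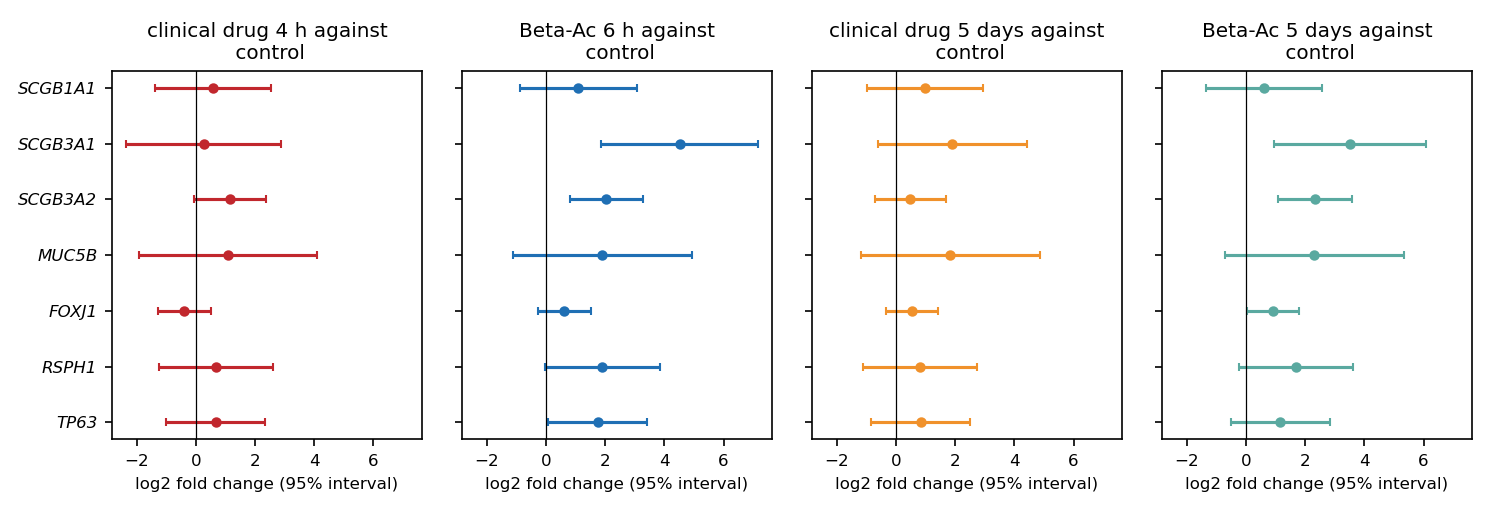
Log2 fold change of each airway gene against control in the 4 comparisons (points) with its 95% interval from the edgeR fit of all 15 libraries (bars), with a vertical line at 0. In the Beta-Ac 6 h group the intervals of SCGB3A1 (1.88 to 7.17), SCGB3A2 (0.80 to 3.26) and TP63 (0.065 to 3.43) lay above 0, and at 5 days after Beta-Ac those of SCGB3A1, SCGB3A2 and FOXJ1, while no gene was called. Without Beta-Ac 5 days animal 1 the log2 fold changes at 5 days after Beta-Ac were 0.86 for SCGB3A1, 1.83 for SCGB3A2 and 0.11 for FOXJ1.

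Ordered by mean CPM, control was the lowest of the 5 groups for 6 of the 7 genes, and clinical drug 4 h for FOXJ1. The highest group was Beta-Ac 6 h for SCGB1A1, SCGB3A1, RSPH1 and TP63, and Beta-Ac 5 days for SCGB3A2, MUC5B and FOXJ1. Neighbouring groups in this order overlapped in all 4 steps for SCGB1A1, SCGB3A1, MUC5B, RSPH1 and TP63. For SCGB3A2 and FOXJ1 they overlapped in 3 of 4 steps, the exception being control and clinical drug 5 days.

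Counts of members whose groups did not overlap were read against the share of all genes with that property. In the Beta-Ac 6 h group 5 of the 7 members (SCGB3A1, SCGB3A2, FOXJ1, RSPH1 and TP63) did not overlap control, against 16.3% of all genes. The count was 1 of 7 against 21.3% in the clinical drug 4 h group, 2 of 7 against 12.3% at 5 days after the clinical drug and 1 of 7 against 12.2% at 5 days after Beta-Ac. Between the drugs it was 2 of 7 against 22.4% early and 1 of 7 against 11.3% at 5 days.

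Within a drug, levels at 5 days were compared with the early ones. Between 5 days and 4 h of the clinical drug, 1 of the 7 members did not overlap, against 29.1% of all genes, and that member was FOXJ1. Between 5 days and 6 h of Beta-Ac, 0 of 7 did not overlap, against 13% of all genes. In the latter comparison 0.261% of all genes and 0 of the 7 members were called, DESeq2 called 0 of the 7, and no member had an unadjusted p under 0.05. Log2 fold changes there ran from -1.02 for SCGB3A1 (95% interval -3.21 to 1.17) to 0.41 for MUC5B (95% interval -2.35 to 3.17), intervals that include severalfold changes in both directions.

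The spread between animals of a group was large for these genes. The biological coefficient of variation that edgeR estimated was 0.347 for FOXJ1 and 0.459 for SCGB3A2, and 0.622 to 1.14 for the other 5. Among all tested genes these values stood at the 80.1 percentile for FOXJ1, 89.4 for SCGB3A2 and 95.8 to 99.7 for TP63, RSPH1, SCGB1A1, SCGB3A1 and MUC5B. A library that was high for 1 of the genes tended to be high for the others. Beta-Ac 5 days animal 1 and Beta-Ac 6 h animal 3 ranked among the 4 highest libraries for 7 of 7 genes, and clinical drug 4 h animal 1 for 5 of 7. Control animals 1 and 3 and clinical drug 4 h animal 3 ranked among the 4 lowest for 6 of 7.

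Single animals therefore set several of the directions. Without clinical drug 4 h animal 1, the log2 fold changes against control turned negative for SCGB1A1 (0.58 to -0.54), SCGB3A1 (0.25 to -0.36), MUC5B (1.09 to -2.32), RSPH1 (0.68 to -0.29) and TP63 (0.67 to -0.47). Also without it, 5 of the 7 genes (SCGB3A1, SCGB3A2, MUC5B, FOXJ1 and TP63) were called lower in the clinical drug 4 h group than in the Beta-Ac 6 h group, beside 11.3% of all genes. In the comparison of 5 days with 4 h of the clinical drug, 2 members (MUC5B and FOXJ1, both higher at 5 days) were then called, beside 13.8% of all genes. Without Beta-Ac 6 h animal 1, SCGB3A2 was called higher than control (log2 fold change 2.44, edgeR adjusted p = 0.0783). Without Beta-Ac 5 days animal 1, the log2 fold changes against control turned negative for SCGB1A1 (0.61 to -0.079), MUC5B (2.31 to -0.25) and TP63 (1.15 to -0.25). Control animal 2 acted the other way, and without it the log2 fold changes in the clinical drug 4 h group went from 0.58 to 2.37 for SCGB1A1, from 1.09 to 3.52 for MUC5B and from 0.68 to 2.73 for RSPH1, with none of the 7 called.

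The common movement was measured as correlations of log2 CPM over the 15 libraries, in 21 pairs. Pearson's r was positive in all 21, from 0.392 to 0.922, and 19 pairs had a permutation p under 0.05 after Benjamini-Hochberg adjustment over the pairs (17 by Spearman's rho). Among the 15 pairs without SCGB3A2, r ranged from 0.581 to 0.922 with a median of 0.770. The pairs of SCGB3A2 had a median r of 0.556. All 21 pairs stayed positive after each group's mean was subtracted, from 0.27 to 0.943, and 11 of them had an adjusted p under 0.05 when animals were permuted within groups only. All points share their library, so depth and the piece of tissue taken are common to both genes of a pair.

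Some of the closest pairs joined different cell classes. MUC5B and RSPH1 had r = 0.922 and rho = 0.889 (two-sided permutation p = 1e-05, the smallest that the permutations can give, and 3e-05), and r was 0.852 without the 2 libraries farthest from the median. SCGB1A1 and RSPH1 had r = 0.909 and rho = 0.879 (permutation p = 1e-05 and 4e-05), and r was 0.838 without 2 libraries. SCGB1A1 and MUC5B, both secretory, had r = 0.904 and rho = 0.932 (permutation p = 1e-05 for both), and r was 0.861 without 2 libraries. RSPH1 and TP63 had r = 0.852 and rho = 0.921 (permutation p = 1e-05 for both), and r was 0.924 without 2 libraries. By contrast, SCGB1A1 and SCGB3A2, both secretoglobins, had r = 0.392 and rho = 0.5 (permutation p = 0.146 and 0.0624), and 0.313 without 2 libraries. SCGB3A2 and RSPH1 had r = 0.566 and rho = 0.586 (permutation p = 0.0276 and 0.0241), and r fell to 0.334 without Beta-Ac 5 days animal 1 and Beta-Ac 6 h animal 3, so that this relation rests on those 2 libraries.

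**Figure D3:**
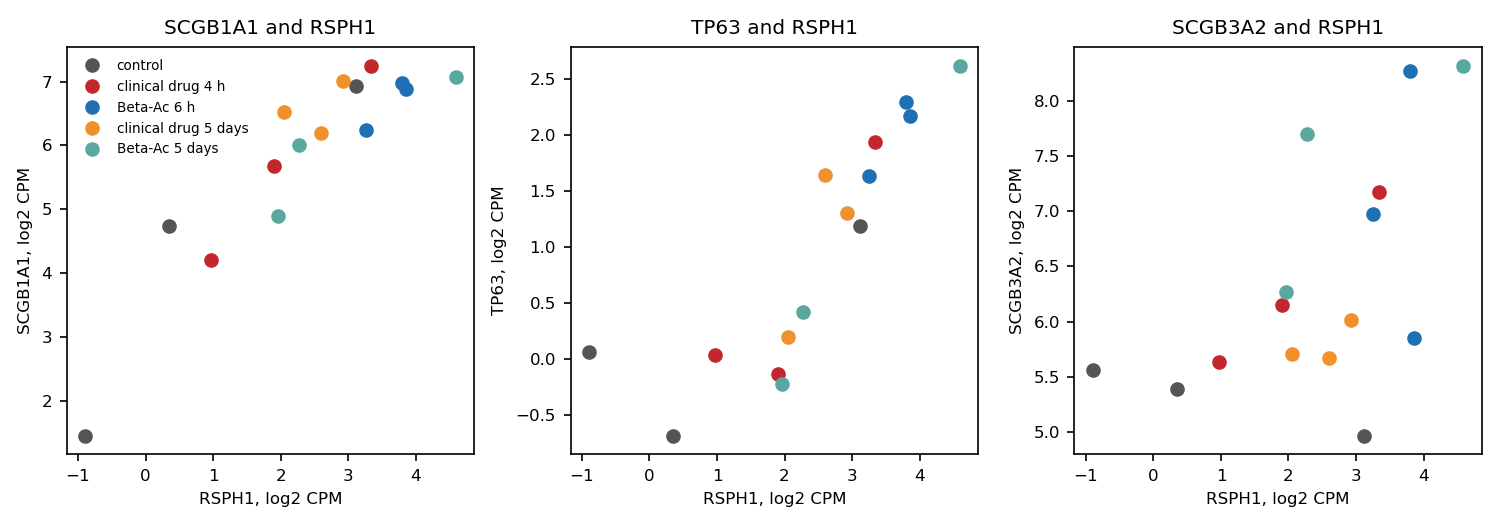
Log2 CPM of SCGB1A1, TP63 and SCGB3A2 against that of RSPH1, with 1 point per lung library coloured by group. SCGB1A1 (r = 0.909) and TP63 (r = 0.852) rose with RSPH1 across and within groups, while SCGB3A2 (r = 0.566) followed it loosely, with control animal 2 high in RSPH1 and lowest in SCGB3A2 (31.2 CPM).

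Genes whose levels followed a member most closely were then sought among 11214 tested genes with a symbol and a mean of at least 1 CPM, by Pearson's r over the 15 libraries. For SCGB1A1 they were TTLL6 (r = 0.954), a tubulin polyglutamylase, C4H6orf118 (0.944) and STK33 (0.933). For FOXJ1 the closest were GFRA3 (0.915) and SPNS3 (0.905). For TP63, in place of KRT5, they were IQCG (0.959), a protein of the dynein regulatory complex, CCDC24 (0.95) and TSPAN1 (0.946). Nearest to SCGB3A1 were DHRS9 (0.924), AZGP1 (0.921) and SLC22A16 (0.897), and nearest to SCGB3A2 were MAP3K9 (0.837), BUD31 (0.823) and FAM83E (0.814). The latter 2 searches were added after the values had been seen.

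Wider lists of the same cell classes were examined. Of 50 genes of the axoneme and motile cilium, 33 were in the table and all were tested, and 0 were called in any of the 8 comparisons. Their log2 fold changes against control were above 0 for 30 of 33 in the clinical drug 4 h group, 32 in the Beta-Ac 6 h group, 26 at 5 days after the clinical drug and 32 at 5 days after Beta-Ac. Medians were 0.44, 1.30, 0.47 and 1.11, and 50.5% to 52.7% of all genes were above 0. The same 3 control libraries enter all 4 of these counts, and control animal 3 held the lowest value of 22 of the 33 genes. Beta-Ac 5 days animal 1 held the highest value of 27 of the 33.

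The summed level of the 33 axoneme genes was 156, 308 and 138 CPM in control animals 1 to 3. It was 351, 205 and 167 CPM in the clinical drug 4 h group and 379, 308 and 378 CPM in the Beta-Ac 6 h group. It was 216, 246 and 280 CPM at 5 days after the clinical drug and 601, 194 and 236 CPM at 5 days after Beta-Ac. As for RSPH1 and SCGB1A1, control animal 2 and clinical drug 4 h animal 1 stood above the rest of their groups. Among the axoneme genes of highest mean were DNAH11 (33.2 CPM), a dynein heavy chain, and RSPH3 (21.9 CPM), a radial spoke protein. In the Beta-Ac 6 h group their log2 fold changes against control were 0.62 and 0.11, with edgeR adjusted p of 0.322 and 0.589.

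Of 16 regulators of multiciliogenesis, the programme by which a cell makes many cilia, 14 were tested and 0 were called in any of the 8 comparisons. Their median log2 fold changes against control were 0.18, 0.75, 0.10 and 0.56 in the order above. E2F4 (83.3 CPM), RFX2 (29.3 CPM) and PLK4 (20.8 CPM) had the highest means, and the first and last of these also act in the cell cycle. Beta-Ac 5 days animal 1 held the highest value of 9 of the 14 genes, and control animal 3 the lowest of 8.

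**Figure D4:**
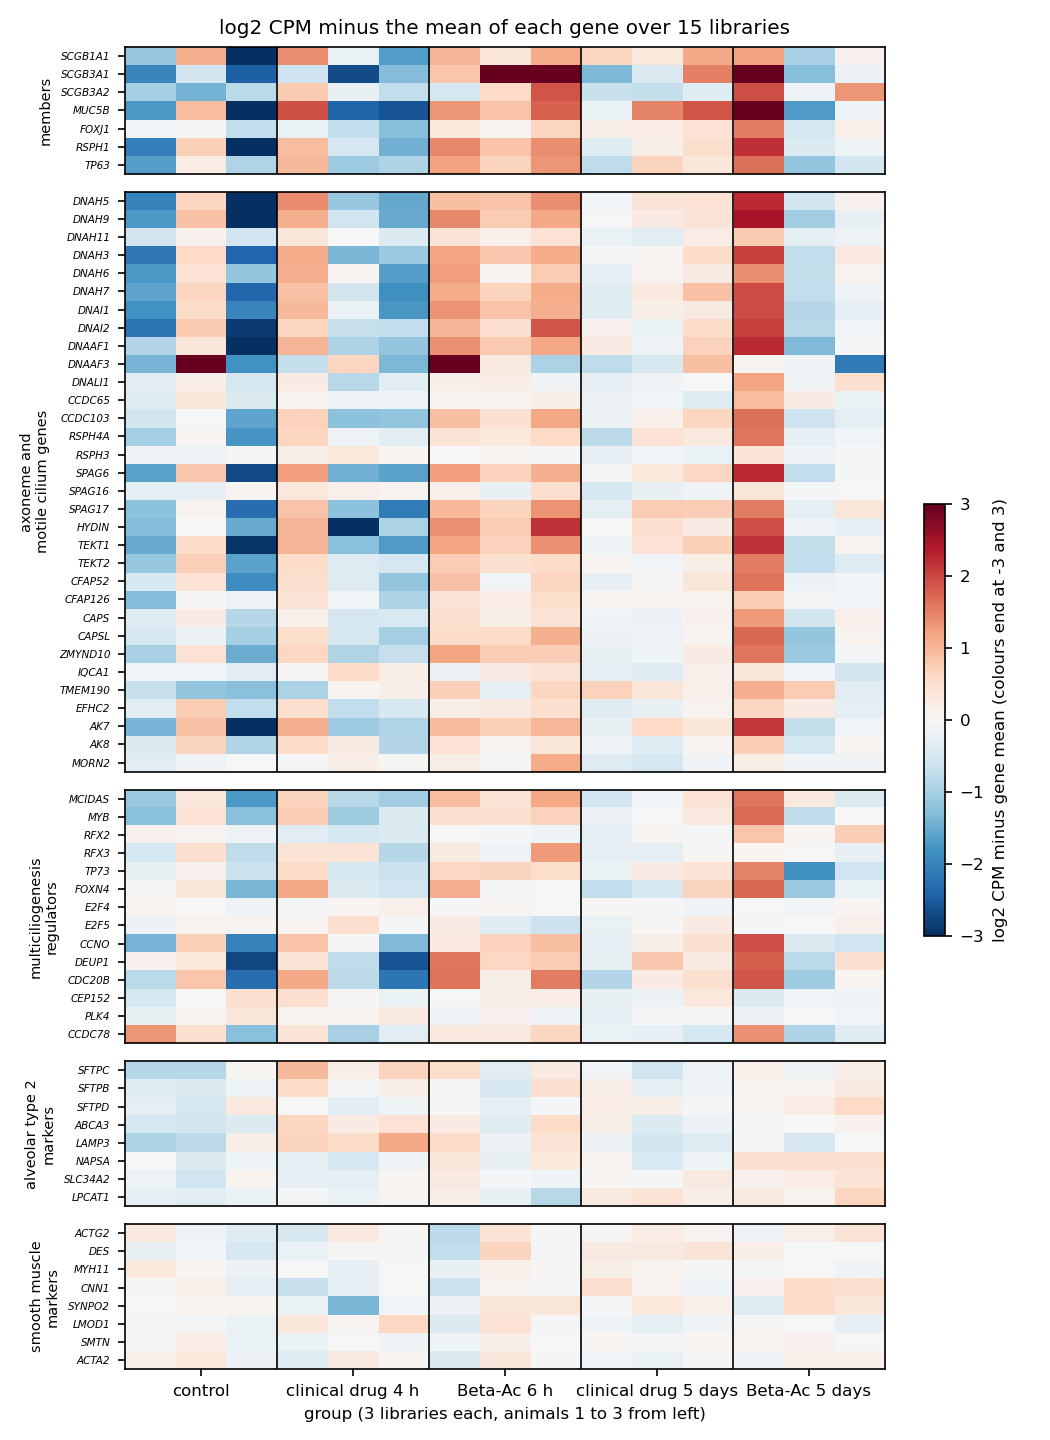
Log2 CPM minus the gene's mean over the 15 lung libraries (colour, ending at -3 and 3) for the 7 airway genes, the axoneme list (32 of its 33 tested genes), the multiciliogenesis list, alveolar type 2 markers and smooth muscle markers, with 1 column per library. Most of the axoneme genes are high together in Beta-Ac 5 days animal 1 and low together in control animal 3. Summed smooth muscle markers were the lowest of the group in both libraries (1809 and 1658 CPM). Summed type 2 markers were mid-group in the former (14370 CPM) and highest of the group in the latter (13210 CPM). Among lists not drawn, the gland, cartilage and neuroendocrine sums were also highest of the group in Beta-Ac 5 days animal 1 (146, 332 and 34.3 CPM). So were the alveolar type 1 sum (3319 CPM) and the sum of the secretory and mucous list (1821 CPM). The pan-epithelial, basal cell and red blood cell sums were not (1147, 2441 and 68.7 CPM).

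The secretory and mucous list held 24 genes, of which 13 were tested. In the clinical drug 4 h group 1 rose and 1 fell, beside 7.4% of all genes called, and 0 were called in the other 3 comparisons against control. MUC1, a membrane mucin, rose from 126 ± 7.004 CPM to 208 ± 10.3 CPM (SD, n = 3 each), with a log2 fold change of 0.72 (SE 0.16, edgeR adjusted p = 0.0104). STEAP4, a metalloreductase, fell from 22.2 ± 9.84 to 10.7 ± 5.37 CPM, by 1.02 on the log2 scale (edgeR adjusted p = 0.0880), and was higher at 5 days than in the clinical drug 4 h group (log2 fold change 1.87, edgeR adjusted p = 0.00414). The list's genes of highest mean were CYP4B1 (925 CPM), MUC1 (176 CPM) and KRT7 (167 CPM), which other lung cells also express.

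PIGR, the receptor that carries immunoglobulin across the epithelium, and LTF, lactoferrin, were lower in the clinical drug 4 h group than in the Beta-Ac 6 h group, where 6.74% of all genes were called. The log2 fold changes were -1.76 for PIGR and -0.74 for LTF, with edgeR adjusted p of 0.0949 and 0.0596. PIGR was also higher at 5 days than in the clinical drug 4 h group (log2 fold change 1.78, edgeR adjusted p = 0.0734). These 2 genes were named after their values were seen. BPIFA1, a protein of the upper airway and trachea, did not exceed 0.374 CPM and had no read in 8 of the 15 libraries.

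Of 22 basal cell genes, 14 were tested, and 2 fell in the clinical drug 4 h group, beside 7.4% of all genes called in either direction. NGFR, a surface marker of basal cells that nerve cells also express, went from 9.59 ± 3.05 to 4.23 ± 1.19 CPM (SD, n = 3 each), with a log2 fold change of -1.19 (edgeR adjusted p = 0.0164). DST, a cytoskeletal linker found in many cell types, went from 646 ± 110 to 413 ± 10.9 CPM (log2 fold change -0.65, edgeR adjusted p = 0.00504). Both were higher at 5 days than in the clinical drug 4 h group. 0 of the 14 were called in the other 3 comparisons against control. The list's highest means, BCAM (830 CPM), DST (593 CPM) and LAMA3 (469 CPM), belong to genes that endothelium and alveolar epithelium also express, and the summed level of the list was 2292 to 2712 CPM in all 15 libraries.

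Of 15 pulmonary neuroendocrine genes 11 were tested, and 0 were called in any of the 8 comparisons. Log2 fold changes against control were above 0 for 11 of 11 in the Beta-Ac 6 h group, with a median of 0.77. They were above 0 for 8, 8 and 7 of 11 in the clinical drug 4 h group and at 5 days after the clinical drug and Beta-Ac. Over all genes the share above 0 was 50.5% to 52.7%. The same 3 control libraries enter all 4 counts, and GRP, CHGB, SST and DDC had medians of only 0.18 to 0.31 CPM. UCHL1 (10.01 CPM), SCG5 (6.34 CPM) and NCAM1 (4.81 CPM) had the highest means. NEUROD1 had no read in any of the 15 libraries.

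Markers of other cells were listed for the same libraries. Cartilage surrounds the larger airways, and the summed level of 8 cartilage genes, led by COL9A1 (mean 174 CPM) and COL2A1 (34.8 CPM), was 121 to 249 CPM in control and 115 to 235 CPM in the clinical drug 4 h group. It was 247, 312 and 386 CPM in the Beta-Ac 6 h group, 241 to 292 CPM at 5 days after the clinical drug and 332, 202 and 178 CPM at 5 days after Beta-Ac. None of the 8 was called against control. Smooth muscle markers, led by ACTA2 and MYH11, summed to 1477 to 2297 CPM with overlap between all groups, and 0 of 8 were called against control. The part of cartilage-bearing airway in the results above was not tested.

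Epithelial content was compared in the same way. Pan-epithelial genes, led by NKX2-1 and KRT19, summed to 881 to 1300 CPM over the 15 libraries, and 1 of 11 tested, ESRP1, fell in the clinical drug 4 h group (log2 fold change -0.67, edgeR adjusted p = 0.0139). Alveolar type 2 markers, led by SFTPC and SFTPB, summed to 8638 to 13210 CPM in control and 10560 to 19740 CPM in the treated groups, and 3 of 8 (SFTPC, ABCA3 and LAMP3) rose in the clinical drug 4 h group, beside the 7.4% of all genes called there. Alveolar type 1 markers, led by AGER and CAV1, had HOPX higher and RTKN2 lower at that time. Red blood cell markers, of which 4 were tested, with ALAS2 and SLC4A1 the most abundant, summed to 18.5 to 89.6 CPM in 14 libraries and to 222 CPM in Beta-Ac 6 h animal 3, the animal with the highest SCGB3A1. The called genes of these lists, and KRT4 and the red blood cell genes above, were named after their values were seen.

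Airway genes were also read in the hippocampus of 5 saline animals, a tissue with no airway but with neighbouring ependyma, whose cells bear motile cilia. Of these, 3 carry the animal numbers of the lung controls. The labels place the 5 at gestational day 130 to 135, with control animal 5 at day 130. The hippocampus was normalised on its own, at 18280762 to 25862134 reads per library, so its values are given without a test. MUC5B had 0 reads in all 5 libraries, SCGB1A1 had 3 reads in all and at most 0.123 CPM, and SCGB3A2 did not exceed 0.329 CPM. SCGB3A1 lay between 0.163 and 0.576 CPM and TP63 between 0.244 and 1.36 CPM. The ciliary genes were present, with RSPH1 at 10.2 to 26.6 CPM (median 13.7) and FOXJ1 at 20 to 31.3 CPM in 4 libraries and 164 CPM in control animal 5. The secretory genes were thus at or near 0 in brain libraries of like depth, whereas FOXJ1 and RSPH1 were not. TP63 was low in both tissues, and its hippocampus range overlapped the 0.535 to 2.19 CPM of the lung controls.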

How the data were processed

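Lung RNA of 15 fetuses was sequenced on an Illumina platform. The authors deposited gene counts, made with featureCounts (version 1.5.1 per the labels) after alignment with Bowtie to the rhesus build MMUL1.0, where the lung labels give Bowtie version 1.2.1.1 and the study's methods name Bowtie 2. How reads of similar genes or of overlapping genes on opposite strands were shared is not given in the sources used here. Counts are by Ensembl identifier, and symbols came from a table that pairs rhesus Ensembl identifiers with names and named 52.1% of them.

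A gene needed 7 reads or more in 3 or more of the libraries, and the 17644 of 30246 that had them entered 1 edgeR (version 4.0.16, R 4.3.3) quasi-likelihood fit of the 5 groups with TMM normalisation. Calls needed a fold of at least 1.5, p under 0.05 and a Storey q under 0.1, which is the edgeR adjusted p given throughout. For DESeq2 the adjusted p is that tool's own, by the Benjamini-Hochberg method, and it was held to the same threshold. CPM are TMM-scaled, and correlations used log2 CPM with a prior count of 2 and 1e+05 permutations. Alternatives were RLE scaling, DESeq2 (version 1.42.0), other filters, other thresholds, fits of 2 groups and leaving out each animal. The 9 genes, the lists and the tests were chosen with earlier results of these data known. The text names all 9 genes, called genes and the most abundant genes of each list, and the 3 genes closest to SCGB1A1, FOXJ1 and TP63. Of the genes this rule names, 2 are not reported here. Labels do not say whether libraries share a batch. The number that opens the library titles differs between all clinical drug 4 h libraries and all libraries of the Beta-Ac 6 h and 5-day groups. Control animals 1 and 2 share it with the clinical drug 4 h libraries, and control animal 3 shares it with all 5-day libraries. It therefore differs together with time between 5 days and 4 h of the clinical drug, and in part between control and the Beta-Ac 6 h and 5-day groups. Its meaning is not given. The 10 hippocampus libraries of treated animals, whose labels conflict on the drug, were not used. A search of promoters was not run.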

Additional observations from a re-analysis of the deposited data

Results flagged for a closer look

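SCGB3A1 differed between the early drug groups in a direct test. Its log2 fold change in the clinical drug 4 h group against 6 h after Beta-Ac was -4.27 (SE 1.19, edgeR adjusted p = 0.0381), and all 3 clinical drug libraries (1.27 to 5.58 CPM) lay below the 3 Beta-Ac libraries (15.4 to 106 CPM). Since drug, dose, hour and the opening number of the library titles all differ between these groups, they cannot be told apart.

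In the saline hippocampus, the groups of 5 allowed a search for single libraries far from the rest, which chance alone flags in about 1 group of 20. Of 6 genes with any read, 2 met this rule. FOXJ1 was at 163.7 CPM in control animal 5, where the other 4 libraries lay at 20 to 31.3 CPM, and RSPH1 was also highest in that library with 26.6 CPM. SCGB1A1 was at 0.1226 CPM in 1 library, which corresponds to 3 reads, and at 0 in the other 4, where any read at all meets the rule and the chance rate does not apply. Lung groups held 3 animals and were not searched in this way.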

How the results depend on the processing

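The count of airway genes called changed with the tool and with the animals. DESeq2 called 2 of the 7 for Beta-Ac 6 h against control, 1 for Beta-Ac 5 days against control, 2 for clinical drug 4 h against Beta-Ac 6 h and 1 for clinical drug 5 days against 4 h, where edgeR called 0, 0, 1 and 0. Over all genes DESeq2 called 1.4%, 0.227%, 6.39% and 9.6% in these comparisons. A fit of the 2 groups alone also called 1 (FOXJ1) in the last of these, beside 10.2% of all genes. Leaving out each animal in turn gave 0 to 1 for Beta-Ac 6 h against control, 0 to 5 for clinical drug 4 h against Beta-Ac 6 h, 0 to 2 for clinical drug 5 days against 4 h, and 0 in the other 5 comparisons. The number of correlated pairs went from 19 to 11 with group means removed, and stayed at 19 with RLE scaling and with another prior count. The cause of these changes was not tested.

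None of the 56 log2 fold changes of the members changed sign under another scaling, filter, threshold, fit or tool, and 21 changed sign when 1 animal was left out. Their ranges over the left-out animals were as follows. For clinical drug 4 h against control it ran from -0.54 to 2.37 for SCGB1A1, -0.36 to 1.02 for SCGB3A1, -2.32 to 3.52 for MUC5B, -0.29 to 2.73 for RSPH1 and -0.47 to 1.35 for TP63. For Beta-Ac 5 days against control it ran from -0.079 to 2.40 for SCGB1A1, -0.25 to 4.74 for MUC5B and -0.25 to 1.83 for TP63. For clinical drug 5 days against Beta-Ac 5 days it ran from -0.021 to 1.06 for SCGB1A1, -2.84 to 1.05 for SCGB3A1, -1.02 to 2.09 for MUC5B, -0.72 to 0.43 for FOXJ1, -1.29 to 0.45 for RSPH1 and -0.75 to 1.097 for TP63. For clinical drug 5 days against 4 h it ran from -0.047 to 1.52 for SCGB1A1, -0.24 to 1.11 for RSPH1 and -0.15 to 1.31 for TP63. For Beta-Ac 5 days against 6 h it ran from -0.18 to 1.13 for SCGB3A2, -2.14 to 0.96 for MUC5B, -0.50 to 0.64 for FOXJ1 and -1.54 to 0.20 for RSPH1. The number of genes called over all alternatives was 884 to 2104 (clinical drug 4 h against control), 9 to 247 (Beta-Ac 6 h against control), 0 to 16 (clinical drug 5 days against control), 0 to 40 (Beta-Ac 5 days against control), 314 to 2389 (clinical drug 4 h against Beta-Ac 6 h), 0 to 8 (clinical drug 5 days against Beta-Ac 5 days), 1256 to 3306 (clinical drug 5 days against 4 h) and 5 to 185 (Beta-Ac 5 days against 6 h). No paired analysis was possible because each lung group is made of different animals, and the numbers in their labels name single animals that no lung groups share. MUC5B and TP63 had 60 to 530 reads per group, and the 95% intervals of their fold changes spanned severalfold changes.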
